A study of Mus musculus with 6 samples.

Results

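The 43 genes examined here belong to the core machinery of S phase and mitosis. They were matched by symbol, and all 43 were found among the 24346 genes listed for each heart library. The matching uses no measured value, but the list was chosen with earlier results of these data known. The hearts came from C57BL/6 J male mice, whose age is not given in the sources used here. The C group received normal chow. The N group received the NASH diet, rich in fat, sugar and cholesterol, with added bile acid. The NP group received the NASH diet with pemafibrate, a selective PPARα modulator, at 0.1 mg/kg. Each group had 2 libraries, 6 in all. The sample labels give 3 weeks of feeding, whereas the methods of the study name a longer time.

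A cell that divides first licenses its replication origins with the MCM helicase and then copies its DNA with the help of the sliding clamp PCNA and a supply of deoxynucleotides. In mitosis, CDK1 with its cyclins, the Aurora and Polo kinases, the spindle checkpoint and the kinesins of the spindle separate the chromosomes, and the anaphase-promoting complex (APC/C) ends the phase. Adult cardiomyocytes have largely left the cell cycle, so that in the adult heart most dividing cells are endothelial cells, fibroblasts and leukocytes. In RNA from whole tissue, fewer dividing cells and less RNA per dividing cell cannot be told apart.

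The values are FPKM (fragments per kilobase of transcript, scaled to the number of mapped fragments), which correct for gene length and so allow levels to be compared between genes. The depth, estimated from the steps of the low FPKM values, came to 26000000 and 21400000 reads for C, against 8150000 to 8760000 reads for N and NP, so that depth and diet cannot be told apart in a comparison with the C group. Cardiomyocyte markers summed to between 33138 and 42069 FPKM in every library, as the heart label would have it, although the extraction protocol in the labels speaks of liver. Hepatocyte markers summed to 44.3 and 543.9 FPKM in the C group, 2.29 and 4.26 FPKM in the N group, and 9.17 and 3.78 FPKM in the NP group. Atrial markers summed to 171 to 307 FPKM in the C group, 3647 to 5117 FPKM in the N group and 3704 to 6124 FPKM in the NP group. Like depth, the tissue content behind the hepatocyte and atrial markers cannot be told apart from diet in a comparison with the C group.

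Most of these genes were listed at low values. The median over the 43 genes of the mean FPKM was 0.776, compared with 8.23 over the 12923 genes that entered the tests, and 24 of the 43 had a mean under 1 FPKM. *Pcna*, the sliding clamp of the replication fork, stood alone at the top with a mean of 35.5 FPKM, and no library of another member reached its lowest value of 28.8 FPKM. Only 6 members exceeded a mean of 3 FPKM, namely *Pcna*, *Mcm7*, *Rrm1*, *Cenpf*, *Mcm6* and *Mcm4*. The ranges of *Mcm7*, *Rrm1*, *Cenpf* and *Mcm6*, which followed *Pcna*, overlapped from each gene to the next. *Bub1*, a checkpoint kinase, had the lowest mean at 0.117 FPKM.

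**Figure D1:**
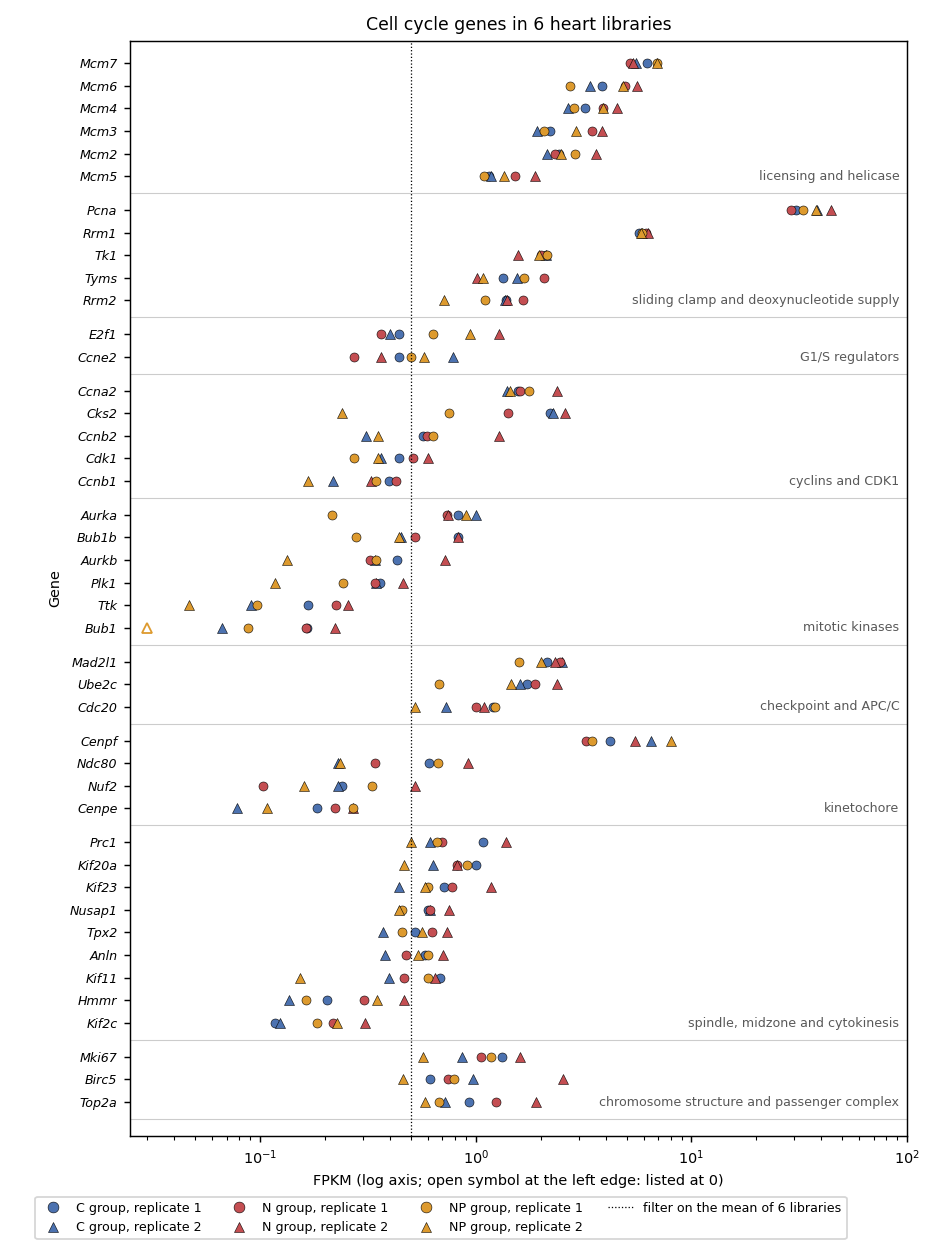
FPKM of the 43 genes on a log axis, grouped by role, with 1 symbol per library (circles for replicate 1, triangles for replicate 2; blue for C, red for N, orange for NP). The dotted line marks 0.5 FPKM, the minimum mean for a test. *Pcna* lies alone at the right, most mitotic genes lie near or left of the line, and the red triangle of the second N library is often the rightmost symbol.

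Expressed in reads, support was thinnest in the NP group. The median member had about 60 and 37 reads in the C group, 19 and 25 reads in the N group, and 16 and 13 reads in the NP group. At most 10 reads supported 1 and 5 members in the C group, 13 and 7 members in the N group, and 14 members in each NP library. A floor of 3 reads or fewer was reached in 12 values, of which 11 were in the NP group and 1, that of *Nuf2*, was in the N group. The members at the floor in the second NP library were *Cks2*, *Ccnb1*, *Aurkb*, *Plk1*, *Ttk*, *Bub1* and *Nuf2*, and *Bub1* was listed at 0 there. In the first NP library they were *Cks2*, *Aurka*, *Ttk* and *Bub1*. Since the C libraries were deeper, the same FPKM corresponded to more reads there.

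**Figure D2:**
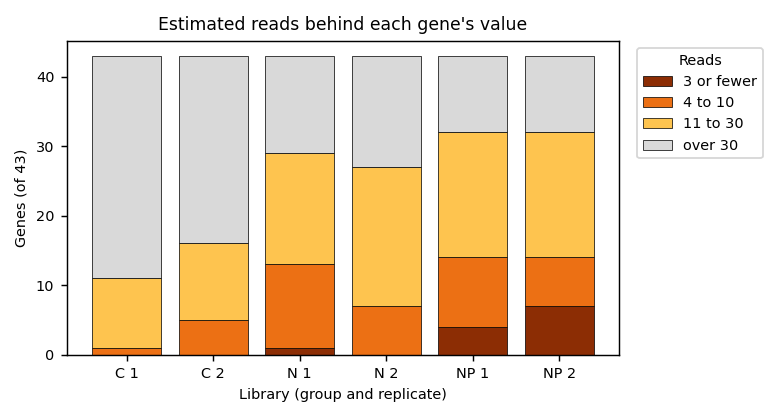
Stacked bars of the number of genes, out of 43, whose FPKM corresponded to 3 or fewer, 4 to 10, 11 to 30 or over 30 estimated reads, by library. Over 30 reads supported 32 and 27 genes in the C group, 14 and 16 genes in the N group, and 11 genes in each NP library.

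The tests were run for the 30 members with a mean of at least 0.5 FPKM. The 13 members under it were *Ndc80*, which missed it at 0.4997 FPKM, and *Kif11*, *Ccne2*, *Cdk1*, *Aurkb*, *Ccnb1*, *Plk1*, *Hmmr*, *Nuf2*, *Kif2c*, *Cenpe*, *Ttk* and *Bub1*. The nearest member above it was *Anln*, with a mean of 0.546 FPKM. Differences are given on the log2(FPKM + 1) scale, which understates the change of such low genes, and *P* values are those of limma's two-sided test with all 3 groups in one model, adjusted by the Benjamini-Hochberg method over the 12923 genes. The labels only number the replicates, so the *P* values measure the spread between these libraries, which may be technical. With 2 libraries in each group, the smallest *P* value that exact permutation allows is 0.333.

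The first question was whether proliferation genes differed in the hearts of the N group from those of the C group. By limma, 0 of the 30 tested members had an adjusted *P* value under 0.05, where 1.55% of all tested genes did, and the smallest adjusted *P* value among them was 0.1745, for *Mcm3*. At an unadjusted *P* value under 0.05 there were 2 members, *Mcm3* and *Top2a*, both higher in the N group, where 15.0% of all genes passed and 8.24% passed as higher. This count was 7 without the first N library, 1 without the second N library, 1 without the first C library, 0 without the second C library and 4 without either NP library. The log2 difference was positive for 25 and negative for 5 members, where 44.8% of all genes were positive, and its median was 0.12, against -0.03 over all genes. The N libraries lay wholly above the C libraries for 12 members and wholly below them for 3, where 22.5% and 27.0% of all genes did so. The median was 0.03 without the second N library, 0.30 without the first N library and 0.25 without the first C library.

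The second question was whether the NP group differed from the N group, a comparison that shares the N libraries with the one above. By limma, 0 of the 30 members had an adjusted *P* value under 0.05, where 1.39% of all genes did, and the smallest was 0.2418, for *Cks2*. At an unadjusted *P* value under 0.05 there were 6 members, where 8.04% of all genes passed. Of these, *Mcm7* was higher in the NP group, where 2.21% of all genes were, and *Cks2*, *Top2a*, *Ube2c*, *Rrm2* and *Mcm3* were lower, where 5.83% were. The count of 6 became 2 without the second N library and 3 without the first C library, the second C library or the first NP library. The log2 difference was positive for 4 and negative for 26 members, where 55.8% of all genes were positive, and its median was -0.24, against 0.03 over all genes. Both NP libraries lay below both N libraries for 15 members, where 14.7% of all genes did so, and above them for 1, *Mcm7*, where 15.2% did so. Without the second N library the median was -0.14.

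Between the NP and C groups, 0 of the 30 members had an adjusted *P* value under 0.05 by limma, where 0.0387% of all genes did, and 1 member, *Cks2*, had an unadjusted *P* value under 0.05, where 8.05% of all genes passed and 4.18% passed as lower. The differences were positive for 15 members and negative for 15, where 47.2% of all genes were positive. Their median was -0.01, as was that of all genes. The NP libraries lay wholly above the C libraries for 3 members, where 19.5% of all genes did so, and wholly below them for 7, where 23.0% did so.

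**Figure D3:**
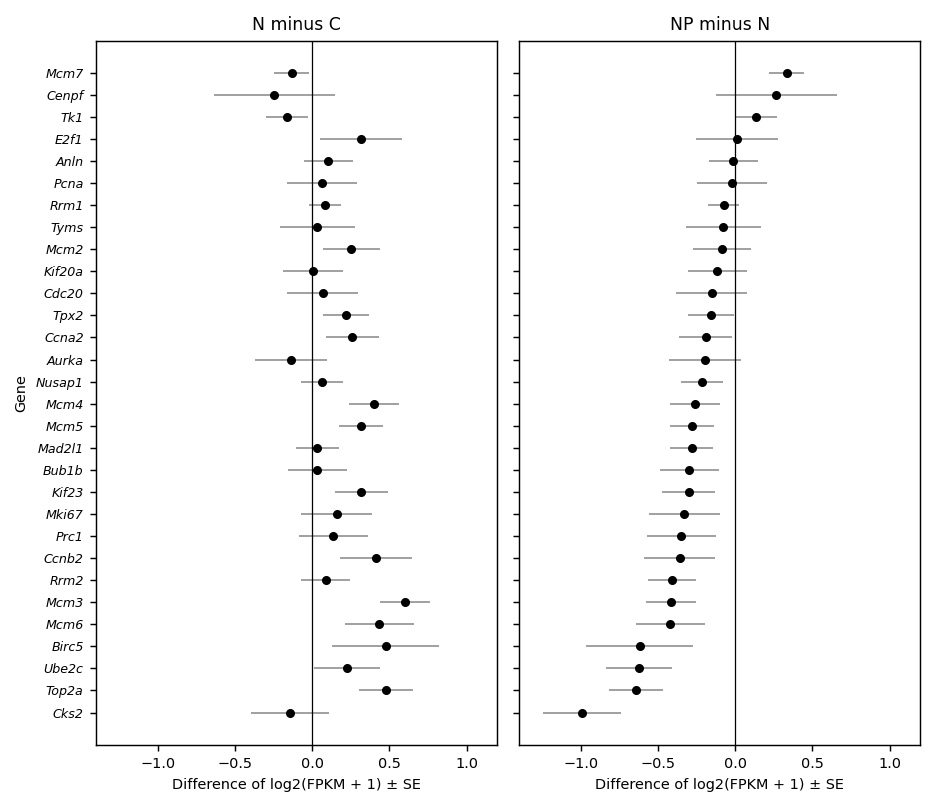
Differences of log2(FPKM + 1) between group means for the 30 tested genes, with limma's standard errors as bars, N minus C on the left and NP minus N on the right; genes are in the order of the right panel. The N libraries enter both panels with opposite sign. *Cks2* has the lowest value on the right at -1.00, and *Mcm3* the highest on the left at 0.60.

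The genes of origin licensing and the helicase held the member with the smallest *P* value between the N and C groups. *Mcm3*, a subunit of the MCM helicase, was at 2.22 and 1.92 FPKM in the C group, 3.46 and 3.84 FPKM in the N group, and 2.07 and 2.93 FPKM in the NP group. Both N libraries were above the other 4. N minus C was 0.60 ± 0.16 (SE, limma's adjusted *P* = 0.1745) and NP minus N was -0.42 ± 0.16 (adjusted *P* = 0.5774), with 2 libraries per group. About 180 reads over the N libraries and 118 over the NP libraries stood behind it.

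*Mcm6*, another subunit, was at 3.86 and 3.39 FPKM in the C group, 4.91 and 5.60 FPKM in the N group, and 2.73 and 4.83 FPKM in the NP group. *Mcm4* was at 3.21 and 2.69 FPKM, 3.91 and 4.50 FPKM, and 2.86 and 3.88 FPKM in the same order, and *Mcm5* at 1.15 and 1.18 FPKM, 1.51 and 1.89 FPKM, and 1.09 and 1.35 FPKM. For these 3 subunits too, the N libraries lay above those of both other groups, with differences from the C group of 0.44, 0.40 and 0.32 and adjusted *P* values of 0.4347, 0.3373 and 0.3832. The NP libraries overlapped the C libraries for all 3. *Mcm2* was at 2.43 and 2.15 FPKM in the C group, 2.32 and 3.61 FPKM in the N group, and 2.90 and 2.48 FPKM in the NP group, with the first N library between the C libraries and the second above them.

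*Mcm7*, the sixth subunit, had another order. It was at 6.24 and 5.54 FPKM in the C group, 5.17 and 5.38 FPKM in the N group, and 6.90 and 6.91 FPKM in the NP group, and its NP libraries were above the other 4. N minus C was -0.13 (adjusted *P* = 0.6367) and NP minus N was 0.33 ± 0.11 (adjusted *P* = 0.4617); with the FPKM scaled to the same total, the former was 0.02. Exons of *Mcm7* overlap those of *Ap4m1* and *Cops6* on the opposite strand, and it is not stated whether the strand was used in counting. Summed over the 6 subunits, the helicase was at 19.1 and 16.9 FPKM in the C group, 21.3 and 24.8 FPKM in the N group, and 18.6 and 22.4 FPKM in the NP group.

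The promoters of *Mcm3* and *Mcm6* are shown because both genes were above the C libraries in each N library while carrying different elements. The strand of the gene is given 5′ to 3′ (RefSeq, GRCm38.p6, the build also called mm10), with capitals for the CCAAT box, bound by NF-Y, and for TTTNNCGC, an E2F-type element, each searched on both strands. The window of *Mcm3* is chr1:20820313-20820562 on the minus strand, and that of *Mcm6* is chr1:128359706-128359955 on the minus strand.
Mcm3: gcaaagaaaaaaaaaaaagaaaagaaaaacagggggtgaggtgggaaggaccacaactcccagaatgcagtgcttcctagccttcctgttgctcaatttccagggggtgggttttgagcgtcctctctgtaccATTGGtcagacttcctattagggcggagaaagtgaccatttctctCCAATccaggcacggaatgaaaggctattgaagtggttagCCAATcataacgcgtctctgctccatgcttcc
Mcm6: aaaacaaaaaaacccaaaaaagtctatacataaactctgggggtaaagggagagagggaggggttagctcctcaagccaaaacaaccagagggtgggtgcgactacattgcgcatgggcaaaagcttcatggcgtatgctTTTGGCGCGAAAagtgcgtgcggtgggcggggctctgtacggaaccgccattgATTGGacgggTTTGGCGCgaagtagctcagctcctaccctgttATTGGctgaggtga
In these windows, *Mcm3* holds 3 CCAAT boxes and 0 E2F-type elements, and *Mcm6* holds 2 CCAAT boxes and 3 E2F-type elements, of which 2 overlap in one run of capitals. Over the 250 bases before the start, 37 of the 43 members had a window in the RefSeq table, 39 windows in all. CCAAT was found in 74.4% of these windows and in 33.8% of the 32851 windows of all genes. TTTNNCGC was found in 25.0% of the 12 windows of S phase members, in 3.70% of the 27 windows of the mitotic members and in 4.28% of all windows. These letters are descriptions of sequence and not sites shown to be bound.

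Among the 5 genes of deoxynucleotide supply and the clamp, the N libraries lay wholly above the C libraries for *Rrm1* and *Rrm2*. They lay wholly below them for *Tk1*. Of all tested genes, 22.5% lay wholly above and 27.0% wholly below. *Pcna* was at 30.7 and 38.3 FPKM in the C group, 28.8 and 44.6 FPKM in the N group, and 32.9 and 37.9 FPKM in the NP group, with differences of 0.06 ± 0.23 and -0.02 ± 0.23 for N against C and NP against N. *Rrm1*, the large subunit of ribonucleotide reductase, was at 5.73 and 5.91 FPKM in the C group, 6.17 and 6.28 FPKM in the N group, and 5.89 and 5.81 FPKM in the NP group, with N minus C at 0.08 ± 0.10. *Rrm2*, the S phase subunit of the same enzyme, was at 1.38 and 1.37 FPKM in the C group, 1.66 and 1.39 FPKM in the N group, and 1.10 and 0.713 FPKM in the NP group. Its N minus C was 0.09 ± 0.16. The NP libraries had the lowest *Rrm2* values, with a difference from the N group of -0.41 ± 0.16 (limma, adjusted *P* = 0.5735), and rested on about 18 and 12 reads. *Tyms* and *Tk1*, which make and salvage thymidylate, lay between 1.02 and 2.08 FPKM and between 1.58 and 2.15 FPKM.

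*E2f1*, a transcription factor that drives entry into S phase, was at 0.441 and 0.399 FPKM in the C group, 0.364 and 1.29 FPKM in the N group, and 0.631 and 0.942 FPKM in the NP group. The second N library had the highest value and the first N library the lowest. *Ccne2*, a cyclin E gene that activates CDK2, was under the minimum of the test; at 0.272 and 0.366 FPKM, its N libraries were the lowest of the 6, on about 7 and 9 reads.

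Of the cyclins and CDK1 partners, *Cks2*, a small subunit that binds CDK1, gave the largest difference of any tested member. It was at 2.20 and 2.29 FPKM in the C group, 1.41 and 2.59 FPKM in the N group, and 0.754 and 0.241 FPKM in the NP group. Both NP libraries were below the other 4, while the N libraries lay on either side of the C libraries. NP minus N was -1.00 ± 0.25 (adjusted *P* = 0.2418) and NP minus C was -1.14 ± 0.25 (adjusted *P* = 0.4611). These values rested on about 3 and 1 reads in the NP libraries and 6 and 11 in the N libraries. From the 4 and 17 reads, the ratio of the NP to the N group was 0.247 with a 95% interval of 0.0606 to 0.758, which covers counting error only.

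*Cdk1*, the kinase that starts mitosis, was at 0.442 and 0.363 FPKM in the C group, 0.511 and 0.604 FPKM in the N group, and 0.273 and 0.353 FPKM in the NP group. The 3 groups did not overlap for *Cdk1*, which was under the minimum of the test. *Ccnb1*, its cyclin B1 partner, was at 0.395 and 0.218 FPKM, 0.429 and 0.325 FPKM, and 0.344 and 0.167 FPKM in the C, N and NP groups, which overlapped. *Ccnb2* was highest in the second N library at 1.29 FPKM and lay between 0.311 and 0.636 FPKM in the other 5. *Ccna2*, the cyclin of S phase and early mitosis, lay between 1.39 and 2.37 FPKM, and was higher in each N library than in each C library.

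In the chromosome group, *Top2a*, the topoisomerase that untangles DNA before mitosis, was at 0.935 and 0.723 FPKM in the C group, 1.24 and 1.89 FPKM in the N group, and 0.674 and 0.585 FPKM in the NP group. The N libraries were above the other 4 and the NP libraries were the lowest. N minus C was 0.48 ± 0.18 (adjusted *P* = 0.2855) and NP minus N was -0.64 ± 0.18 (adjusted *P* = 0.2943). *Mki67*, which encodes the proliferation antigen used in histology, was at 1.32 and 0.863 FPKM in the C group, 1.06 and 1.61 FPKM in the N group, and 1.17 and 0.570 FPKM in the NP group. Its groups overlapped in each comparison, with differences of 0.16 ± 0.23 for N against C and -0.33 ± 0.23 for NP against N. *Birc5*, which encodes survivin of the chromosomal passenger complex, was at 2.54 FPKM in the second N library and between 0.460 and 0.975 FPKM in the other 5.

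The promoters of *Top2a* and *Cks2* are shown because these 2 mitotic genes had the smallest *P* values between the NP and N groups. Capitals mark CCAAT and the cell cycle homology region (CHR), searched as TTTGAA and TTCGAA on both strands, an element of late cell cycle promoters. The window of *Top2a* is chr11:99024200-99024439 on the minus strand, and that of *Cks2* is chr13:51644982-51645231 on the plus strand.
Top2a: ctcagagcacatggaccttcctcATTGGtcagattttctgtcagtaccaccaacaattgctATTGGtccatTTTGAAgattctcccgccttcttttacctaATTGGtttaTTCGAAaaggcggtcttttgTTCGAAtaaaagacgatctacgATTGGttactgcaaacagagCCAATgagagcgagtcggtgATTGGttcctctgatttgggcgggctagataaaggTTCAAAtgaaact
Cks2: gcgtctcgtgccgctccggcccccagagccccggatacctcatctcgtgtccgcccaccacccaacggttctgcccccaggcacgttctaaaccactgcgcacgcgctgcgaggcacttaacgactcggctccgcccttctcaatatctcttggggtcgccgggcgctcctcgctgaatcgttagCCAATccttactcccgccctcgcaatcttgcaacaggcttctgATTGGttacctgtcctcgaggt
The *Top2a* window, which was trimmed to 240 bases at the edge of the gene, holds 6 CCAAT boxes and 4 CHR matches. The *Cks2* window holds 2 CCAAT boxes and 0 CHR matches. A CHR match was found in 37.0% of the 27 mitotic windows, 16.7% of the 12 S phase windows and 17.1% of all windows.

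Among the genes of the checkpoint and the APC/C, *Ube2c*, the ubiquitin-conjugating enzyme of the APC/C, was at 1.74 and 1.60 FPKM in the C group, 1.89 and 2.37 FPKM in the N group, and 0.672 and 1.46 FPKM in the NP group. The NP libraries were below the other 4, with a difference from the N group of -0.62 ± 0.21 (limma, adjusted *P* = 0.4774), on about 4 and 9 reads against 13 and 16. Its exons overlap those of *Tnnc2*, a muscle troponin gene, on the opposite strand. *Mad2l1*, which holds back the APC/C until chromosomes are attached, lay between 2.15 and 2.52 FPKM in the C and N groups and at 1.59 and 2.01 FPKM in the NP group. *Cdc20*, the activator that MAD2 binds, lay between 0.520 and 1.23 FPKM, with overlapping groups.

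The mitotic kinases were among the lowest members. *Aurka*, the centrosomal Aurora kinase, lay within 0.737 to 1.01 FPKM in 5 libraries and was at 0.215 FPKM, about 3 reads, in the first NP library. *Bub1b*, a checkpoint kinase homologue, was at 0.279 and 0.440 FPKM in the NP group and between 0.450 and 0.830 FPKM in the other groups. The other 4 kinases, *Aurkb*, *Plk1*, *Ttk* and *Bub1*, were under the minimum of the test. Both NP libraries lay below both N libraries for *Plk1*, *Ttk* and *Bub1* but not for *Aurkb*, where 14.7% of all tested genes did so. The NP values of *Plk1*, *Ttk* and *Bub1* rested on about 4 and 2, 2 and 1, and 2 and 0 reads, at or near the floor. The 6 kinases summed to 2.78 and 2.30 FPKM in the C group, 2.31 and 3.22 FPKM in the N group, and 1.27 and 1.64 FPKM in the NP group.

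*Cenpf*, a large kinetochore protein, had the highest mean of the mitotic members. It was at 4.18 and 6.50 FPKM in the C group, 3.26 and 5.50 FPKM in the N group, and 3.45 and 8.01 FPKM in the NP group. The second replicate was above the first in each group, and the 3 groups overlapped. The other kinetochore genes, *Ndc80*, *Nuf2* and *Cenpe*, lay between 0.0783 and 0.918 FPKM. The 9 genes of the spindle, midzone and cytokinesis, which include the kinesins *Kif11*, *Kif20a*, *Kif23* and *Kif2c*, ranged from 0.117 to 1.38 FPKM. The 6 tested among these 9 had a positive N minus C, with a median of 0.12, and a negative NP minus N, with a median of -0.19. By limma, 0 of the 6 had an adjusted or an unadjusted *P* value under 0.05 in either comparison. Over all tested genes, the shares for adjusted and unadjusted values were 1.55% and 15.0% for N against C. They were 1.39% and 8.04% for NP against N.

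Replicates of a group differed from each other in one direction across many members. In the N group, the second library was above the first for 37 of the 43 members, where it was above for 48.1% of all tested genes. In the C group, the first library was above the second for 31 members, where it was above for 48.0% of all tested genes. In the NP group, the first was above the second for 26 members, where it was above for 50.9% of all tested genes. These were 21 of the 30 mitotic members and 5 of the 13 S phase members. The second N library held the highest value of the 6 for 30 of the 43 members, and the second NP library the lowest for 15. The same counts were not made over all tested genes, so these 2 only describe the members. The median difference of the tested members from the C group mean was 0.03 in the first N library, 0.30 in the second, 0.01 in the first NP library and -0.05 in the second. The depth of the first and the second N library was close, at 8690000 and 8760000 reads, and the part of depth in these values was not tested. In the N group, as in the NP group, the first and the second library carry column names of different kinds. The part of that difference in these values was not tested either.

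**Figure D4:**
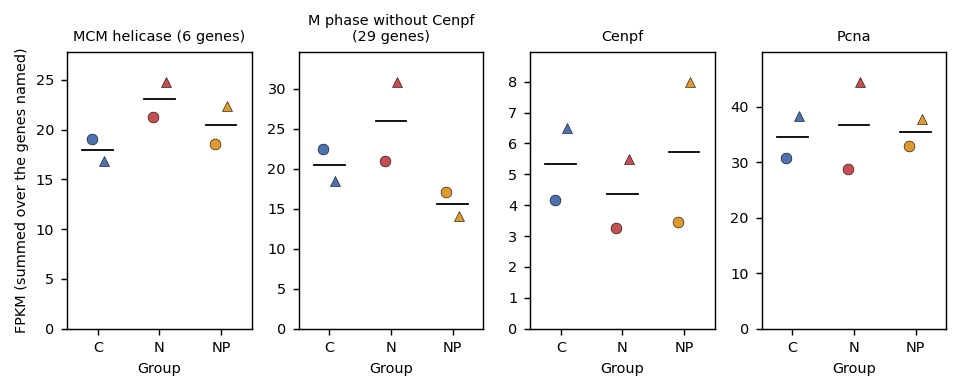
FPKM of each library (circles for replicate 1, triangles for replicate 2) and group means (lines) for the sum of the 6 MCM subunits, the sum of the 29 mitotic genes without *Cenpf*, *Cenpf* alone and *Pcna* alone; each axis starts at 0. The second N library is the highest of the MCM, mitotic and *Pcna* panels, and for *Cenpf* the triangle is above the circle in each group.

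As sums, which also cover the members under the minimum, the 43 genes were at 87.9 and 92.3 FPKM in the C group, 86.8 and 117.7 FPKM in the N group, and 84.0 and 93.5 FPKM in the NP group. The ratio of group means was 1.14 for N over C and 0.867 for NP over N. Without the second N library these ratios were 0.964 and 1.02. *Pcna* and *Cenpf* made up much of these sums. Without them, the sum of 41 genes was 50.3 ± 3.88 FPKM (SD, n = 2) in the C group, 61.2 ± 9.11 FPKM in the N group and 47.6 ± 0.00443 FPKM in the NP group. The small SD in the NP group does not mean that its members agreed between libraries. The 6 MCM subunits went from 18.6 to 22.4 FPKM from the first NP library to the second. The sum of the 29 mitotic members, given next, fell. The 29 mitotic members other than *Cenpf* summed to 22.4 and 18.5 FPKM in the C group, 20.9 and 30.9 FPKM in the N group, and 17.1 and 14.1 FPKM in the NP group. As deposited, both NP libraries were thus the lowest of the 6, while the first N library lay between the C libraries. This order depends on the scaling. All genes together summed to 625457 and 652311 FPKM in the C group, 553956 FPKM in the first N library and 548411 FPKM in the first NP library. Scaled to the same total, the second C library falls below the first NP library. The first N library then lies above both C libraries.

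Marker sums of leukocytes and adipocytes differed in level between the groups, and those of other cell types are given after them. T and NK cell markers summed to 0.861 to 1.08 FPKM in the C group, 10.1 to 13.2 FPKM in the N group and 0.624 to 1.05 FPKM in the NP group. The N libraries were wholly above the C libraries for 9 of the 10 markers, where 22.5% of all tested genes were. Of the 10 markers, 9 were listed at 0 in at least 1 library. Macrophage markers summed to 155 to 178 FPKM, 277.6 to 377 FPKM and 123 to 148 FPKM in the C, N and NP groups. Of these 7 markers, 6 were higher in both N libraries than in both C libraries, where 22.5% of all tested genes were. In both NP libraries, 7 of 7 were lower than in both N libraries, where 14.7% of all tested genes were. B cell markers summed to 0.737 to 0.967 FPKM in the C group, 5.02 to 5.12 FPKM in the N group and 1.28 FPKM in each NP library. Neutrophil markers summed to 2.82 to 7.02 FPKM, 8.97 to 11.2 FPKM and 1.57 to 2.43 FPKM in the C, N and NP groups, with *S100a8* and *Retnlg* listed at 0 in the first NP library only. Adipocyte markers summed to 1.89 to 8.18 FPKM, 84.7 to 172 FPKM and 14.4 to 69.6 FPKM in the C, N and NP groups. For 4 of 4, both N libraries were above both C libraries (22.5% of all tested genes). For 3 of 4, both NP libraries were below both N libraries (14.7% of all tested genes). Endothelial markers overlapped, at 233 to 255 FPKM, 204 to 284 FPKM and 221 to 302 FPKM in the C, N and NP groups. For 0 of 4 were both N libraries above both C libraries, or both NP libraries below both N libraries. Fibroblast markers summed to 392 to 473 FPKM, 508 to 539 FPKM and 474 to 573 FPKM. Both N libraries were above both C libraries for 3 of 4, and both NP libraries below both N libraries for 0 of 4. The part of these cell types in the values of the cell cycle genes was not tested. Between the N libraries, the T and NK cell sum was higher in the second and the macrophage sum was higher in the first.

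A second list of 114 other cell cycle genes, which holds G1 cyclins, CDK inhibitors, replication and repair factors and further mitotic genes, was read in the same way. Of these, 70 were tested, and 0 had an adjusted *P* value under 0.05 by limma in any of the 3 comparisons, with 7, 6 and 5 at an unadjusted *P* value under 0.05 for N against C, NP against N and NP against C, where 15.0%, 8.04% and 8.05% of all genes passed. The median difference was 0.03 for N against C and -0.06 for NP against N. *Ccnd1* and *Ccnd2*, the cyclins D that answer growth signals, were far above the members of S phase and mitosis other than *Pcna*, at 16.8 to 29.5 FPKM and 22.1 to 33.0 FPKM over the 6 libraries. *Foxm1*, a transcription factor of mitotic genes, was at 0.454 and 0.386 FPKM in the C group, 0.489 and 0.550 FPKM in the N group, and 0.377 and 0.254 FPKM in the NP group, in the same order of groups as *Cdk1*. Like *Cdk1*, *Foxm1* was under the minimum of the test, and its NP values rested on about 14 and 10 reads.

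*Cdkn1a*, which encodes the CDK inhibitor p21, was at 35.6 and 36.2 FPKM in the C group but at 70.3 and 21.7 FPKM in the N group and 74.6 and 19.3 FPKM in the NP group. The replicates of the N and NP groups thus differed more than the group means, with N minus C at 0.13 ± 0.74 (limma, adjusted *P* = 0.9598). The following 3 genes were chosen after their values were seen, for the smallest *P* values in the list. *Trp53*, which encodes p53, was at 8.04 and 8.65 FPKM in the C group, 13.6 and 12.2 FPKM in the N group, and 10.9 and 10.7 FPKM in the NP group, with N minus C at 0.57 ± 0.11 (adjusted *P* = 0.09113). *Rbl1*, a pocket protein that binds E2F factors, was at 0.775 and 0.955 FPKM, 1.72 and 2.04 FPKM, and 0.917 and 0.752 FPKM in the 3 groups, with differences of 0.63 and -0.65 and adjusted *P* values of 0.1292 and 0.1673 for N against C and NP against N. *Cdca3*, a trigger of mitotic entry, was at 0.296 and 0.611 FPKM, 1.06 and 1.25 FPKM, and 0.189 and 0.275 FPKM, with NP minus N at -0.81 (adjusted *P* = 0.1418). Its NP values rested on about 3 and 4 reads, the first at the floor, against 16 and 19 reads in the N libraries.

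Some of these values carry a limit of annotation. For 10 members, an exon overlaps another gene on the opposite strand, namely *Ccna2*, *Ccne2*, *Cdc20*, *Kif20a*, *Mcm7*, *Nusap1*, *Plk1*, *Prc1*, *Tk1* and *Ube2c*. The annotation also names 5 pseudogenes after *Ccnb1*, *Ccnb2*, *Pcna* and *Tyms*, with which the parent genes could share reads.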

How the data were processed

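RNA from hearts was read as 75-base single-end reads, and groups and replicate numbers were taken from the sample labels. Per the labels and the methods, the authors mapped reads to mm10 with TopHat2 2.0.13, Bowtie2 2.2.3 and SAMtools 0.1.19, and the deposited FPKM come from Cufflinks 2.2.1; the gene annotation is not given in the sources used here. In the N group, as in the NP group, the first and the second replicate carry column names of different kinds.

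FPKM were taken as log2(FPKM + 1). Genes with a mean of at least 0.5 FPKM over the 6 libraries were tested with limma 3.58.1 (R 4.3.3), with 3 groups in one model, 3 residual degrees of freedom and variance moderation that follows the mean level, at an adjusted *P* value of 0.05. Python 3.11.15 with pandas 2.3.3, numpy 2.4.6, scipy 1.17.1 and matplotlib 3.10.9 gave the rest. Reads per gene were estimated from FPKM, the depth and GENCODE M21 transcript lengths, less 200 bases.

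The members and lists were chosen with earlier results of these data known. Values by library are given for the members with the largest moderated statistics in the main comparisons and for *Mki67*, *Pcna*, *Mcm2*, *Cdk1*, *Ccnb1* and *E2f1*; the other members described were chosen after their values were seen. The test was tested on simulated data, in which changes of at least 1 log2 unit were added only to genes with a mean log2(FPKM + 1) above 1. It therefore does not show how often smaller changes, or changes of lower genes, would be called. Of the 43 members, 24 had a mean under 1 FPKM. Alternatives were other pseudocounts, filters, scalings and designs, and fits without 1 library.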

Additional observations from a re-analysis of the deposited data

How the results depend on the processing

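By limma, 0 members and 0 other cell cycle genes passed the adjusted threshold under every alternative tried. With a pseudocount of 0.1 in place of 1, the median difference of the tested members was 0.25 for N minus C and -0.42 for NP minus N. Leaving out 1 library at a time, it ranged from 0.0286 to 0.30 for N minus C and from -0.34 to -0.14 for NP minus N. The ratio of summed FPKM of the NP to the C group was 1.10 with the FPKM scaled to the same total and 0.985 as deposited. That scaling moved the median of all genes between the N and C groups from -0.03 to 0.12, and that of the members from 0.12 to 0.23. Over all alternatives, the number of all genes called ranged from 49 to 328 for N against C (200 as reported), from 67 to 200 for NP against N (179) and from 0 to 101 for NP against C (5). The cause of these shifts was not tested.

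The replicate numbers are not stated to pair the libraries. The deviations of same-numbered libraries had Pearson correlations of 0.0471 between the C and N groups, 0.124 between the C and NP groups and 0.458 between the N and NP groups, across genes, which are not independent. With the replicate number as a block, 328, 200 and 20 genes were called in the 3 comparisons, 0 of them members, and the median difference of the members was 0.12, -0.24 and -0.01. Depth limits the mitotic genes most, with 14 members at or under 10 reads in each NP library.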
